A study of Homo sapiens with 9 samples.

Results

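The genes described here are 35 human aminoacyl-tRNA synthetase genes, 19 whose enzymes serve the cytosol and 16 whose enzymes serve the mitochondrion. They were taken by gene name from a table of 62703 genes, and each name stood on 1 row of that table. Averaged over the 9 libraries, 13443 genes reached 1 TPM, all 35 among them, and these 13443 were the genes tested. TPM, a unit of transcript abundance, corrects for the length of a gene and for the size of a library. An aminoacyl-tRNA synthetase joins an amino acid to the tRNA with the matching anticodon, the step that fixes the reading of the genetic code. Human cells keep largely separate enzyme sets for cytosolic and mitochondrial translation, both encoded in the nucleus, and the mitochondrial gene of a pair bears the suffix 2. Seen by fold and active site, the enzymes fall into class I and class II, and several cytosolic enzymes are bound in a multisynthetase complex.

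RNA was sequenced from human cells labelled HepG2, a hepatocellular carcinoma line, 3 libraries a group. All cells had been loaded for 24 h with palmitic acid, a saturated fat, at 750 µM. The first group then had 20 µM curcumin, a plant polyphenol, together with 5 µM CuCl2 for 12 h, the second had 20 µM curcumin alone for 12 h, and the third was palmitic acid alone. For the palmitic acid group the labels give no further 12 h, and no vehicle control or cells without palmitic acid were analysed here, so both curcumin groups differ from it in agent and, as labelled, in time. All 15 hepatocyte markers examined, among them the genes of albumin and transthyretin, were below 1 TPM on average and 6 were at 0 in every library, so the cells are called here by their label only.

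The palmitic acid libraries did not resemble each other closely, and this touches every comparison below. Mitochondrially encoded genes took 10.7%, 11.8% and 11.4% of TPM in curcumin plus CuCl2 libraries 1, 2 and 3, 10.4%, 12.4% and 10.9% in curcumin libraries, and 13%, 12.5% and 10.1% in palmitic acid libraries. Palmitic acid library 3 thus had the lowest share of all, and it lay apart from the other palmitic acid libraries on the first principal component. Curcumin library 2 in turn lay apart from curcumin libraries 1 and 3 on that component, at -18.9 against 15.5 and 16. Markers of fibroblasts (7 of 8), leukocytes (6 of 8) and endothelium (7 of 7) averaged under 1 TPM. Of 5 epithelial markers (keratins and EPCAM) 2 also averaged under 1 TPM. Of the 3 above the filter KRT8 fell in both comparisons with palmitic acid alone and KRT18 with curcumin. Of all genes tested 0.9% fell with curcumin plus CuCl2 and 1.21% with curcumin. In bulk RNA, fewer cells of a type and less RNA per cell cannot be told apart.

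The cytosolic synthetases were abundant messages and the mitochondrial ones less so. Mean TPM over the 9 libraries ran from 24.8 (FARSB, the beta subunit of phenylalanyl-tRNA synthetase) to 570.2 (TARS1, threonyl-tRNA synthetase) in the cytosolic set, with a median of 157. In the mitochondrial set it ran from 3.51 (PARS2, prolyl) to 119 (CARS2, cysteinyl), with a median of 20.0. The median of all genes tested was 12.8 TPM. TPM is scaled by gene length, so these levels can be set side by side as levels of message, though not of protein. Within the cytosolic set the medians were 114 TPM for the 9 class I genes and 201 TPM for the 9 class II genes, with EPRS1, whose fused enzyme holds a domain of each class, left out of both. The 7 genes of the multisynthetase complex had a median of 122 TPM and the 12 outside it 203 TPM. Within the mitochondrial set class I and class II differed less, with medians of 18.1 and 21.9 TPM.

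The top of the range was steady across libraries. TARS1 had 606, 546 and 562 TPM in curcumin plus CuCl2 libraries 1, 2 and 3, 564, 570.1 and 589 TPM in curcumin libraries, and 547, 571 and 577 TPM in palmitic acid libraries. No other gene of either set reached its level in any library. CARS2, which charges mitochondrial cysteine tRNA, had 118, 119 and 118 TPM with curcumin plus CuCl2, 115, 113 and 118 TPM with curcumin, and 119, 117 and 129 TPM with palmitic acid alone. The 3 groups of each of these genes overlapped. PARS2 had 2.87, 3.75 and 4 TPM with curcumin plus CuCl2, 3.06, 3.8 and 3.39 TPM with curcumin, and 4.13, 3.44 and 3.12 TPM with palmitic acid alone, again with all groups overlapping.

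**Figure D1:**
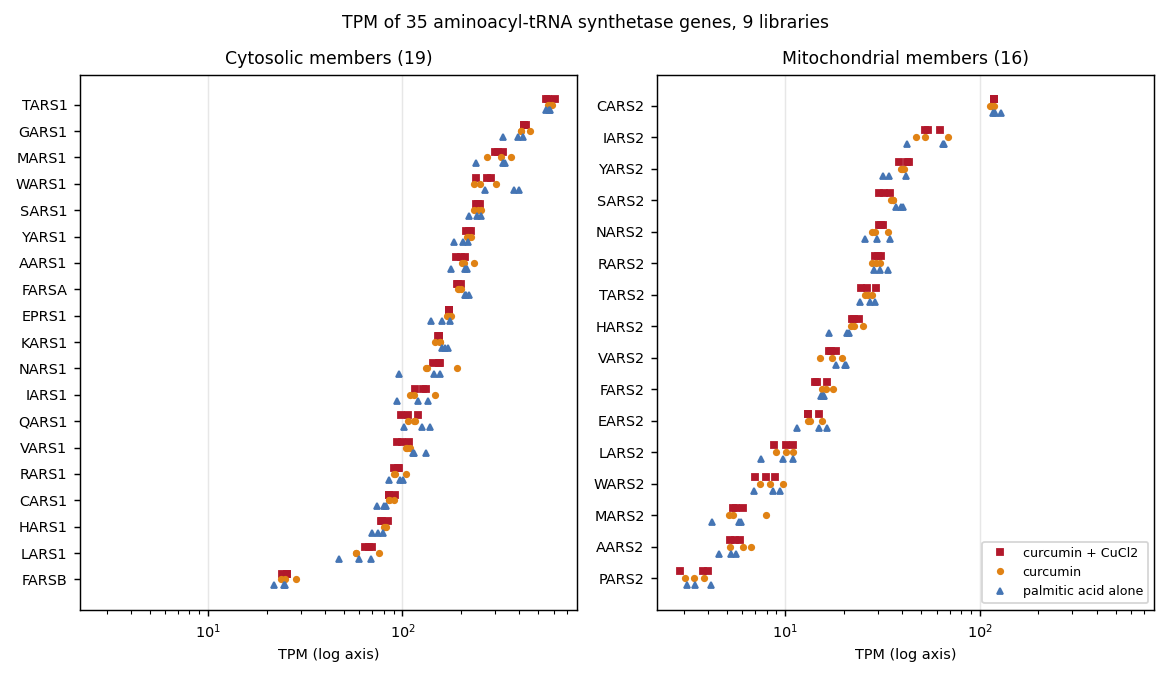
TPM on a log axis for each of the 35 genes, ordered by mean within the cytosolic (left) and mitochondrial (right) sets, with 1 point per library and colours for the 3 groups. Most cytosolic genes lie above most mitochondrial genes, CARS2 near 119 TPM is the exception at the mitochondrial top and FARSB near 24.8 TPM at the cytosolic bottom, and the groups of most genes lie on top of each other.

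For 15 pairings of a cytosolic with a mitochondrial gene of the same amino acid, the ratio of mean TPM, cytosolic over mitochondrial, had a median of 6.003. The cytosolic gene was the higher in every library in 14 of the 15. EPRS1, whose enzyme charges both glutamate and proline tRNAs, was left out of these pairings. It averaged 168 TPM, beside 14.0 TPM for EARS2 (glutamate) and 3.51 TPM for PARS2 (proline). The methionyl pair stood farthest apart, with MARS1 at 310.2 TPM and MARS2 at 5.71 TPM, a ratio of 54.3 that lay between 45.1 and 59.7 in single libraries. Among these 15 the alanyl pair (AARS1 over AARS2) followed at 37.1, and the tryptophanyl pair (WARS1 over WARS2) at 35.3. The smallest ratio above 1 was that of FARSB over FARS2, at 1.59, where FARSA, the alpha subunit that pairs with FARSB in the cytosolic enzyme, exceeded FARS2 by a ratio of 12.9. The messages of the 2 subunits of that enzyme were themselves unequal, with FARSA over FARSB at 8.13 and between 6.84 and 9.72 in single libraries.

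Cysteine was the exception to the order. CARS1 averaged 84.3 TPM and CARS2 119 TPM, a ratio of 0.711 that stayed between 0.572 and 0.797 in single libraries, so CARS2 was the higher in all 9. Above the pairing of FARSB with FARS2 came the isoleucyl pair, with IARS1 over IARS2 at 2.15, then the arginyl pair at 3.14 and the histidyl pair at 3.59. GARS1 and KARS1 have no mitochondrial partner among the 35, since each gene encodes both the cytosolic and the mitochondrial enzyme. They averaged 409 and 157 TPM. For glutamine the mitochondrion uses EARS2 and an amidotransferase, and EARS2 averaged 14.0 TPM.

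The sequences below are those on which the promoters of these genes can be compared with factors known to act on them. Amino acid shortage and stress raise the factor ATF4 through the integrated stress response, and ATF4 with its partners binds the composite element TGATGNAA, by which many synthetase genes are known targets. RefSeq promoter windows of 250 bases before to 50 bases after a gene's start (GRCh38.p14) matched 30 of the 35 genes by symbol, 16 cytosolic and 14 mitochondrial, with 39 windows in all. VARS1, LARS1, YARS1, VARS2 and AARS2 had no window. On either strand, TGATGNAA was found in the windows of 7 of 16 cytosolic genes and 1 of 14 mitochondrial genes, and in 3.62% of all 35116 windows. The first 2 counts are of genes, with 21 cytosolic and 18 mitochondrial windows, and a match in any window of a gene counted. The share is of single windows, so the units differ. The matches are printed 5′ to 3′ on the gene's own strand with 11 bases on either side, and the capitals mark the match, as TGATGNAA or its reverse complement TTNCATCA.
TARS1: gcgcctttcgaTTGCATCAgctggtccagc
GARS1: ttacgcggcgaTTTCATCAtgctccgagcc
IARS1: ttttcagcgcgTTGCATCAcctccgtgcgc
CARS1: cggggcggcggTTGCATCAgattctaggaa
MARS1: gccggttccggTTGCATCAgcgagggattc
AARS1: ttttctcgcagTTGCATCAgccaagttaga
NARS1: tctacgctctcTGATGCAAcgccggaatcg
YARS2: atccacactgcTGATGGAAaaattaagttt

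Of the 7 cytosolic matches 5 read TTGCATCA, the reverse complement of TGATGCAA. NARS1 has the same letters in the other orientation, and GARS1 differs from them inside the element. TARS1 (chr5:33440956-33440985, plus strand), IARS1 (chr9:92293692-92293721, minus strand), CARS1 (chr11:3057407-3057436, minus strand) and MARS1 (chr12:57488053-57488082, plus strand) have the first base of the match at 3, -13, -2 and -4 relative to the start, counted from 1 at the first transcribed base with no 0. GARS1 (chr7:30594834-30594863, plus strand) has it at -33 and NARS1 (chr18:57621804-57621833, minus strand) at 15. The AARS1 match (chr16:70289675-70289704, minus strand) begins at -187 and that of YARS2 (chr12:32756076-32756105, minus strand) at -197, so these lie farther from the start. A match of letters is no proof of binding, and none of these data measured it.

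WARS1, tryptophanyl-tRNA synthetase, is the member long known to be induced by interferon-gamma. The interferon-stimulated response element, searched on either strand as a pair of GAAA with any 2 bases between them, was found in the windows of WARS1 and EARS2 and in 3.57% of all windows. Both are printed on the gene's strand with 10 bases on either side and the match in capitals. The WARS1 match (chr14:100375383-100375412, minus strand) begins at -55 and the EARS2 match (chr16:23557554-23557583, minus strand) at -223.
WARS1: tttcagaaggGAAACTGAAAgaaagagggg
EARS2: cctgccacgcTTTCGCTTTCccaagctgaa

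HARS1 and HARS2, the cytosolic and mitochondrial histidyl-tRNA synthetases, stand head to head on chromosome 5. In GENCODE 29 (GRCh38) HARS1 spans chr5:140673904-140691862 on the minus strand and HARS2 chr5:140691426-140699318 on the plus strand, so the annotated genes overlap. Their RefSeq starts are 84 bases apart, and the shared stretch (chr5:140691370-140691455, GRCh38.p14, plus strand) is printed because both genes are transcribed away from it. The capitals mark the first transcribed base of HARS1, at the left and on the other strand, and of HARS2, at the right.
HARS1 and HARS2: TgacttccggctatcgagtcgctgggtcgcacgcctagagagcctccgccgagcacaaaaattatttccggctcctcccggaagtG

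None of the 35 genes passed the test across all genes in any of the 3 comparisons. The test was limma on log2(TPM + 1) with all 9 libraries in 1 fit, two-sided, and a gene was called at a Benjamini-Hochberg adjusted p under 0.05 over all genes tested. For curcumin plus CuCl2 against palmitic acid alone, 194 of 13443 genes were called (1.44%), 73 of them higher, and none of the 35 was among them. For curcumin against palmitic acid alone, 264 genes were called (1.96%), 102 of them higher, and again none of the 35. At these shares 0 of 35 is near the background and says little about synthetases as a group. At an unadjusted p under 0.05 the first comparison had 4 of the 35, WARS1, VARS1, FARSA and SARS2, beside 13.5% of all genes tested, and the second had 2, WARS1 and FARSA, beside 14%. All of these estimates were below 0. For curcumin plus CuCl2 against curcumin, 0 genes were called (0%), and 215 genes (1.6%) but none of the 35 had an unadjusted p under 0.05. The first 2 comparisons share the palmitic acid libraries, so what they have in common is not independent.

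The intervals show what sizes of change remain possible. The 95% interval of the fold change lay within 1.5-fold in either direction for 33 of 35 genes with curcumin plus CuCl2 against palmitic acid alone, for 33 of 35 with curcumin against palmitic acid alone, and for all 35 between the curcumin groups. WARS1 and NARS1 were the exceptions in both comparisons with palmitic acid alone. The median distance from estimate to interval bound was 0.21 on the log2 scale for the 35 genes, against 0.34 for all genes tested. Simulated data took each gene's within-group spread pooled over all 9 libraries, the same for every group, although the palmitic acid libraries spread most. In them the test recovered 78% of genes changed 2-fold and 44.6% of those changed 1.5-fold, so most smaller shifts would go uncalled.

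Median log2 fold changes were near 0 in both sets. With curcumin plus CuCl2 against palmitic acid alone the median was 0.062 for cytosolic genes, -0.0096 for mitochondrial genes and -0.027 for all genes tested. With curcumin against palmitic acid alone it was 0.091, 0.011 and -0.017 for the same 3 sets. The signs were positive for 12 of 19 cytosolic and 6 of 16 mitochondrial genes with curcumin plus CuCl2, against 43.8% of all genes tested, and for 14 of 19 and 9 of 16 with curcumin, against 46.3%. Without palmitic acid library 3 the cytosolic medians became -0.020 with curcumin plus CuCl2 and -0.023 with curcumin. All genes tested then had medians of -0.098 and -0.088, so the sign of the cytosolic median rests on that library. Without curcumin library 2 the cytosolic median with curcumin was 0.00745 and the mitochondrial one -0.0324, beside -0.0594 for all genes tested. Between the curcumin groups the medians were 0.00044 for cytosolic genes, -0.012 for mitochondrial genes and -0.0083 for all genes tested, with positive signs for 17 of 35 genes beside 45.6% of all genes tested.

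**Figure D2:**
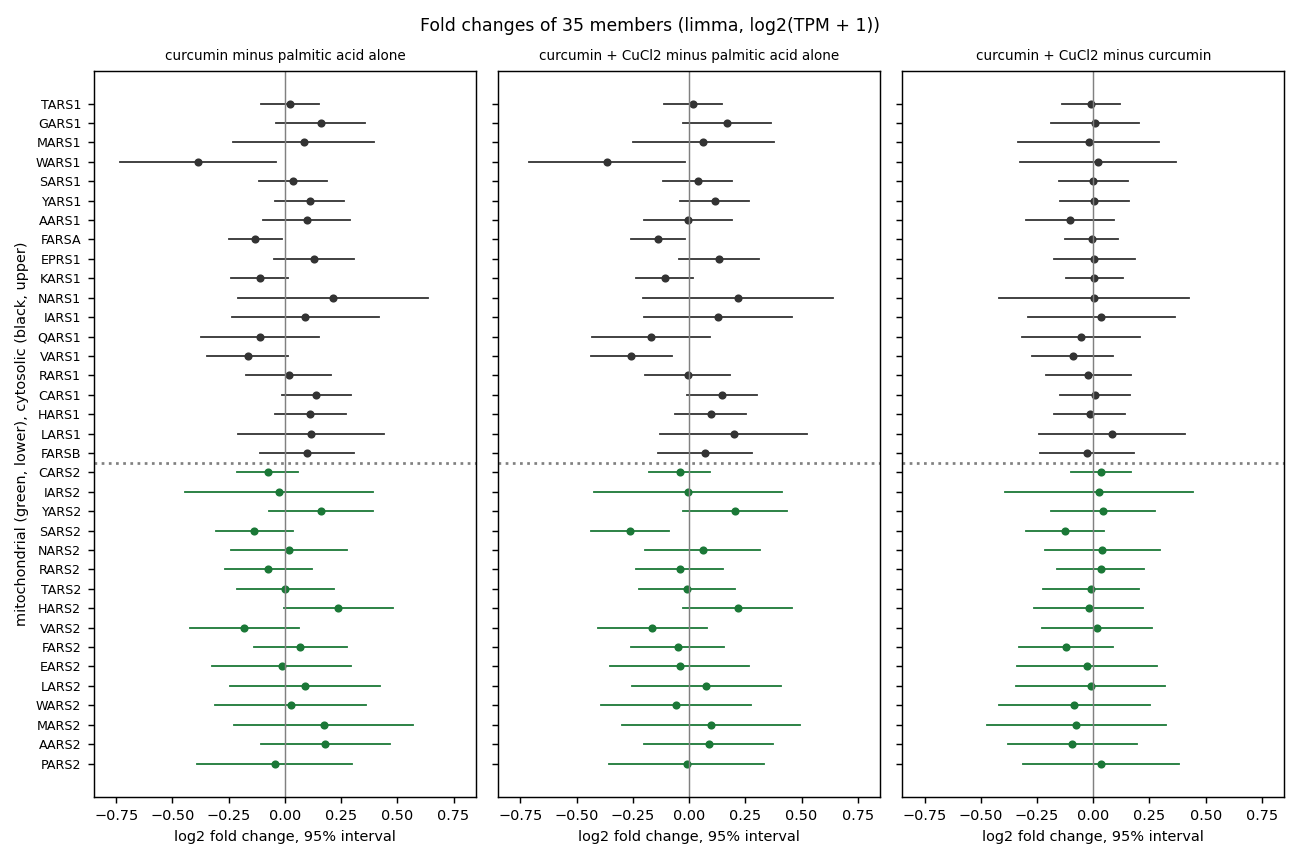
Log2 fold change with its 95% interval (limma, log2(TPM + 1) scale) for each of the 35 genes in the 3 comparisons, cytosolic genes in black above and mitochondrial genes in green below, each ordered by mean TPM. WARS1 has the lowest estimate in the left and middle panels (-0.39 and -0.37), most intervals cross 0, and the right panel, between the curcumin groups, holds the estimates nearest 0.

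Palmitic acid library 3 had the lowest TPM of its group in 28 of the 35 genes, 15 cytosolic and 13 mitochondrial, as it had in 61.4% of all genes tested. In the median gene of the 35 it stood at 86.4% of the mean of palmitic acid libraries 1 and 2, beside 84.7% over all genes tested. It was the lowest of all 9 libraries in 21 of the 35. NARS1, asparaginyl-tRNA synthetase, fell farthest behind in that library, at 64.2% of the mean of the other palmitic acid libraries. At the other end, curcumin library 2 had the highest TPM of its group in 24 of the 35 genes, beside 54.4% of all genes tested, and the highest of all 9 libraries in 15. The spread was widest in the palmitic acid group, where the median coefficient of variation of the 35 genes was 10.2%, and lower with curcumin plus CuCl2 at 4.80% and with curcumin at 7.24%. Over all genes tested the same medians were 7.97% with curcumin plus CuCl2, 12.6% with curcumin and 16.2% with palmitic acid alone.

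**Figure D3:**
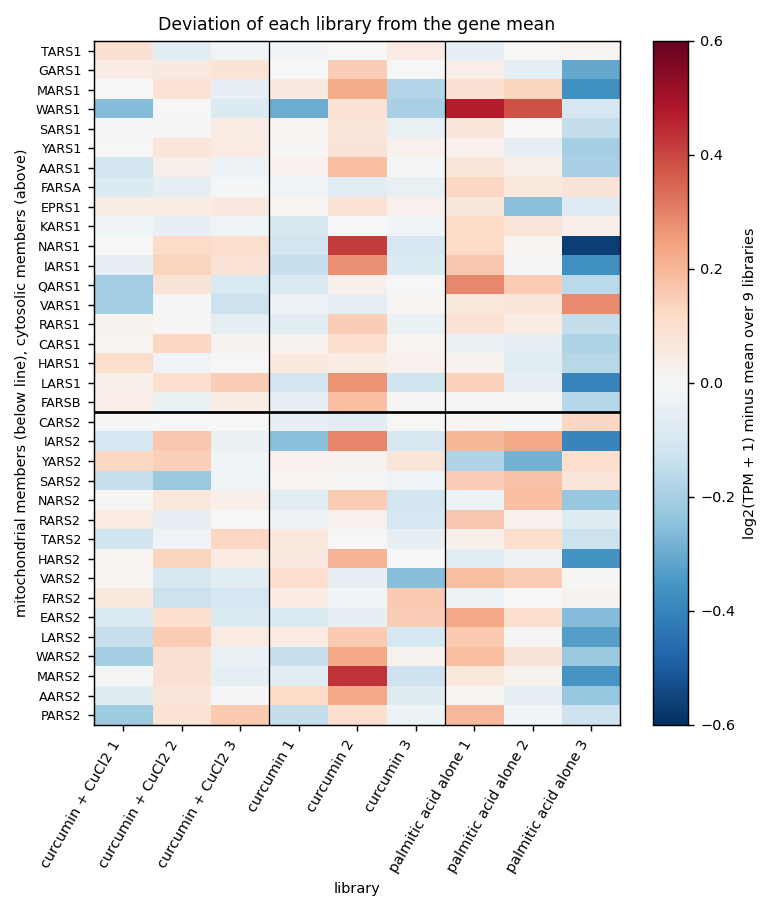
Deviation of each library from the gene's mean over 9 libraries, as log2(TPM + 1), for the 35 genes (rows, cytosolic above the line) and the 9 libraries (columns, by group). Palmitic acid library 3 is blue, below the mean, for most rows of both sets, curcumin library 2 is red for many, and WARS1 is red in palmitic acid libraries 1 and 2.

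The summed level of each set followed the mitochondrially encoded share of the library. The 19 cytosolic genes summed to 3539, 3648 and 3597 TPM in curcumin plus CuCl2 libraries 1, 2 and 3, to 3500.1, 3863 and 3504 TPM in curcumin libraries, and to 3844, 3689 and 3247 TPM in palmitic acid libraries. The 16 mitochondrial genes summed to 429.8, 447 and 437 TPM, to 426, 459 and 429 TPM, and to 457, 454 and 418 TPM in the same libraries. The 3 libraries with the largest mitochondrially encoded share, palmitic acid 1 and 2 and curcumin 2, had the 3 largest sums of each set, and palmitic acid 3 had the smallest share and the smallest sums. What in the libraries this share stands for was not tested.

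**Figure D4:**
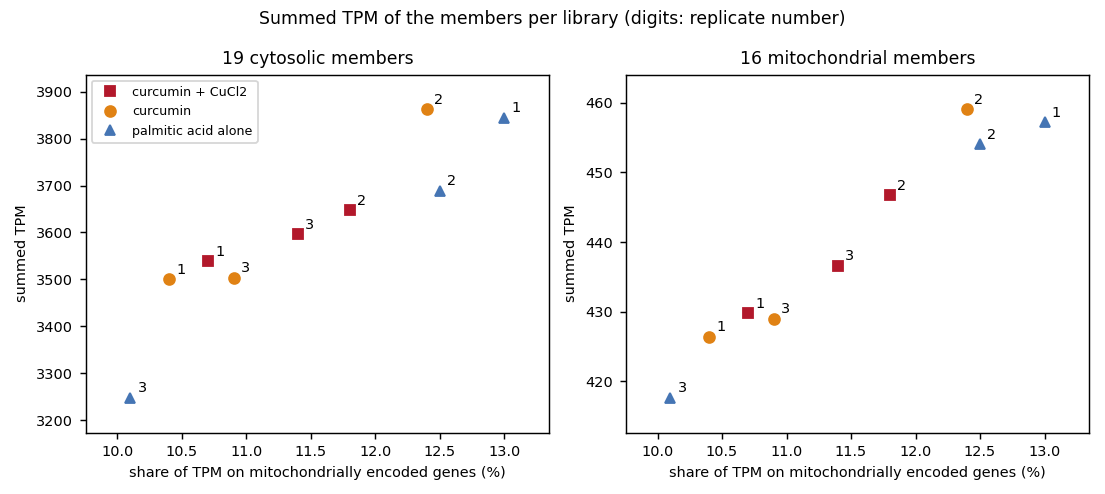
Summed TPM of the 19 cytosolic (left) and 16 mitochondrial (right) genes against the percentage of TPM on mitochondrially encoded genes, 1 point per library with its replicate number. The axes do not start at 0. The sums of both sets are lowest in palmitic acid library 3 and highest in curcumin library 2, with palmitic acid libraries 1 and 2 close behind.

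When that share was added to the fit as a covariate, some of the genes passed the threshold. For curcumin plus CuCl2 against palmitic acid alone 10 of 35 were called, 7 higher and 3 lower, in a fit that called 1436 genes (10.7%, of which 5.66% higher and 5.02% lower). For curcumin against palmitic acid alone 9 of 35 were called, 8 higher and 1 lower, in a fit that called 1505 genes (11.2%, of which 6.41% higher and 4.78% lower). CARS1, GARS1, IARS1, LARS1, NARS1, YARS1 and HARS2 were higher in both, AARS1 was higher with curcumin, WARS1 was lower in both, and VARS1 and SARS2 were lower with curcumin plus CuCl2. Between the curcumin groups this fit called 0 genes. The palmitic acid group holds both the highest and the lowest share, and the part of this in the calls was not tested.

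WARS1 (ENSG00000140105; chr14:100333788-100376805, minus strand, GENCODE 29) had the largest estimated change. It had 238, 285 and 271 TPM in curcumin plus CuCl2 libraries 1, 2 and 3, 232, 304 and 249.6 TPM in curcumin libraries, and 397, 373 and 266 TPM in palmitic acid libraries. Palmitic acid libraries 1 and 2 lay above all 6 curcumin libraries, while library 3 lay among them. The log2 fold change was -0.37 (95% interval -0.71 to -0.019, limma adjusted p = 0.33) with curcumin plus CuCl2 against palmitic acid alone and -0.39 (-0.73 to -0.040, limma adjusted p = 0.292) with curcumin. Without palmitic acid library 3 the change was -0.54 (limma adjusted p = 0.043) with curcumin plus CuCl2 and -0.56 (limma adjusted p = 0.0357) with curcumin. In the fit without a covariate the call thus depends on this 1 library. Those fits called 2.62% and 3.05% of all genes lower. With the mitochondrially encoded share as covariate the change was -0.26 in both comparisons (limma adjusted p = 0.00245 with curcumin plus CuCl2 and 0.00225 with curcumin). Its mitochondrial counterpart WARS2 had log2 fold changes of -0.059 with curcumin plus CuCl2 and 0.026 with curcumin.

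The other genes of the interferon-gamma list were few in these cells, with 3 of 8 above the filter. TAP1, a peptide transporter of antigen presentation, had 17.4, 18.4 and 17.7 TPM with curcumin plus CuCl2, 17.2, 19.1 and 15.7 TPM with curcumin, and 26.5, 31.6 and 25.8 TPM with palmitic acid alone. Neither curcumin group overlapped with the palmitic acid group, and TAP1 fell with curcumin plus CuCl2 (-0.62, limma adjusted p = 0.0271) and with curcumin (-0.66, limma adjusted p = 0.0195). IRF1, an interferon-induced factor, had changes of -0.91 with curcumin plus CuCl2 and -0.67 with curcumin that did not pass (limma adjusted p = 0.179 and 0.338).

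Of the other cytosolic genes, VARS1 (valyl, ENSG00000204394) had 94.0, 107 and 99.0 TPM with curcumin plus CuCl2, 106, 105 and 109 TPM with curcumin, and 113, 114 and 132 TPM with palmitic acid alone. Each curcumin group lay below the palmitic acid group, with log2 fold changes of -0.26 (-0.44 to -0.076, limma adjusted p = 0.174) with curcumin plus CuCl2 and -0.17 (-0.35 to 0.015, limma adjusted p = 0.412) with curcumin. VARS1 was 1 of 5 genes of the 35 that were highest, not lowest, in palmitic acid library 3 of its group. FARSA had 189.9, 194 and 199.99 TPM with curcumin plus CuCl2, 199, 193 and 195 TPM with curcumin, and 219.7, 211 and 212 TPM with palmitic acid alone, with changes of -0.14 (-0.26 to -0.019) and -0.13 (-0.25 to -0.012) at limma adjusted p = 0.274 and 0.301. KARS1, lysyl-tRNA synthetase of both compartments, had 154, 151 and 154 TPM with curcumin plus CuCl2, 147, 157 and 155 TPM with curcumin, and 171, 165 and 160.1 TPM with palmitic acid alone. Neither curcumin group overlapped with its palmitic acid group, at changes of -0.11 and -0.11 (limma adjusted p = 0.454 and 0.431).

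SARS2, mitochondrial seryl-tRNA synthetase (ENSG00000104835), came nearest to the threshold. It had 32.1, 30.2 and 34.8 TPM with curcumin plus CuCl2, 35.7, 35.6 and 34.8 TPM with curcumin, and 39.4, 40.2 and 37.3 TPM with palmitic acid alone. The 3 groups were ordered without overlap, curcumin plus CuCl2 below curcumin and curcumin below palmitic acid alone. The log2 fold change was -0.26 (-0.43 to -0.090, limma adjusted p = 0.145) with curcumin plus CuCl2 against palmitic acid alone, -0.14 (-0.31 to 0.036, limma adjusted p = 0.495) with curcumin against palmitic acid alone, and -0.13 (-0.30 to 0.046, limma adjusted p = 1.0) between the curcumin groups. The cytosolic seryl gene SARS1 had changes of 0.037 in each comparison with palmitic acid alone. SARS2 overlaps MRPS12, a mitochondrial ribosomal protein gene at 87.4 TPM on the other strand, and whether counting used strand is not given in the sources used here.

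**Figure D5:**
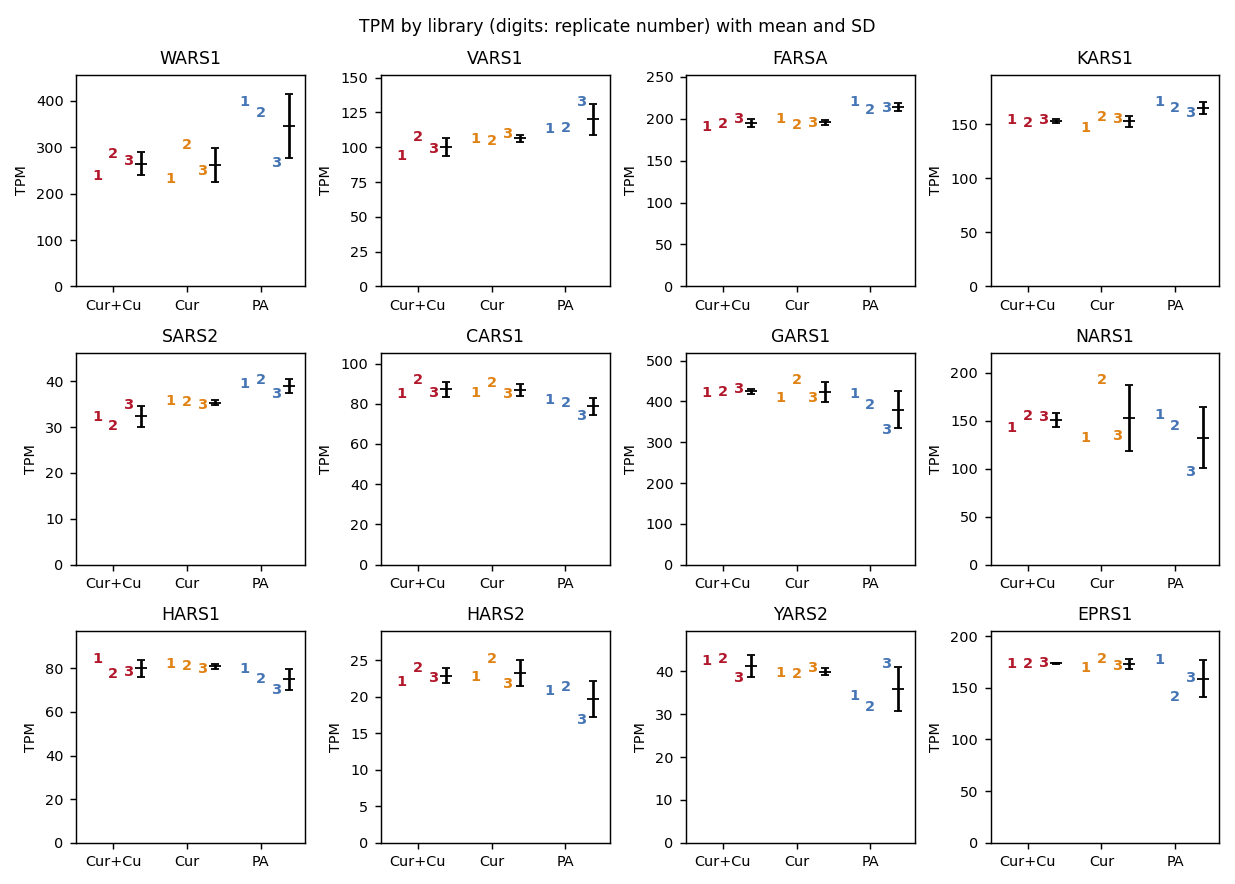
TPM of 12 of the genes in each library, with digits for the replicate number and the group mean and SD beside them (n = 3), curcumin plus CuCl2 and curcumin to the left of palmitic acid alone. In WARS1, NARS1, GARS1 and HARS2 palmitic acid library 3 sits below the other palmitic acid libraries, in VARS1 and YARS2 it sits above them, and in SARS2 and FARSA the 3 palmitic acid libraries lie together above the other groups.

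Groups that do not overlap were counted over all 35. Curcumin plus CuCl2 and palmitic acid alone did not overlap in 7 of 35 genes, 3 higher and 4 lower, beside 19% of all genes tested, of which 8.67% higher and 10.3% lower. Curcumin and palmitic acid alone did not overlap in 7 of 35, again 3 higher and 4 lower, beside 16.8% of all genes tested, of which 8.15% higher and 8.61% lower. The lower genes were FARSA, KARS1, VARS1 and SARS2 in each, and the shares are close to the background. Between the curcumin groups SARS2 alone did not overlap, beside 6.24% of all genes tested.

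The genes that lay above the palmitic acid libraries included CARS1 and HARS2 in both comparisons. HARS2 (ENSG00000112855) had 22.1, 24.0 and 22.6 TPM with curcumin plus CuCl2, 22.6, 25.2 and 21.8 TPM with curcumin, and 20.8, 21.3 and 16.8 TPM with palmitic acid alone, with changes of 0.22 (-0.026 to 0.46, limma adjusted p = 0.426) and 0.24 (-0.0062 to 0.48, limma adjusted p = 0.373). HARS1 (ENSG00000170445) had 84.5, 77.5 and 78.3 TPM, 81.8, 81.0 and 79.9 TPM, and 79.7, 75.0 and 69.9 TPM in the same 3 groups, with changes of 0.096 and 0.11 (limma adjusted p = 0.624 and 0.556). Both head-to-head genes had positive estimates, and palmitic acid library 3 was the lowest of the 9 for both. Because the annotated genes overlap on opposite strands, and whether counting used strand is not given in the sources used here, reads of the pair in the overlap cannot be told apart. CARS1 had 84.8, 91.7 and 85.3 TPM with curcumin plus CuCl2, 85.4, 90.4 and 84.8 TPM with curcumin, and 81.8, 80.7 and 73.8 TPM with palmitic acid alone, at changes of 0.15 and 0.14 (limma adjusted p = 0.401 and 0.42).

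GARS1, glycyl-tRNA synthetase of both compartments, had 420.0, 423 and 431 TPM with curcumin plus CuCl2, 409, 452 and 407 TPM with curcumin, and 419, 391 and 329.6 TPM with palmitic acid alone. The curcumin plus CuCl2 libraries lay just above all palmitic acid libraries, at a change of 0.17 (-0.029 to 0.36, limma adjusted p = 0.451), while the curcumin libraries overlapped with them (0.16, limma adjusted p = 0.484). NARS1 had 143, 155 and 154 TPM with curcumin plus CuCl2, 132, 192 and 133 TPM with curcumin, and 156, 144 and 96.3 TPM with palmitic acid alone, a range of 1.99-fold from the lowest to the highest library. Its changes of 0.22 and 0.21 had intervals of -0.21 to 0.64 in both comparisons. Without palmitic acid library 3 they were 0.0048 and 0.0023.

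EPRS1, whose enzyme charges both glutamate and proline tRNAs, had 173, 173 and 174 TPM with curcumin plus CuCl2, 169, 178 and 171 TPM with curcumin, and 176, 141 and 159 TPM with palmitic acid alone. Here palmitic acid library 2 was the lowest of the 9. The changes were 0.13 with curcumin plus CuCl2 and 0.13 with curcumin (limma adjusted p = 0.531 and 0.549). AARS1 had the largest estimated difference of a cytosolic gene between the curcumin groups, with 189, 209 and 199.6 TPM with curcumin plus CuCl2 and 208, 232 and 203 TPM with curcumin, a change of -0.10 (-0.30 to 0.094). Of the mitochondrial genes, FARS2 had 16.3, 14.2 and 14.5 TPM with curcumin plus CuCl2 and 16.2, 15.4 and 17.5 TPM with curcumin, a change of -0.12 (-0.33 to 0.087), and AARS2 had a change of 0.18 (-0.11 to 0.47) with curcumin against palmitic acid alone, at 6.05, 6.62 and 5.19 TPM against 5.57, 5.27 and 4.55 TPM. YARS2, mitochondrial tyrosyl-tRNA synthetase, was the mitochondrial gene with the element TGATGNAA, and it was highest, not lowest, in palmitic acid library 3 of its group (34.2, 31.8 and 41.8 TPM in libraries 1, 2 and 3).

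The genes whose printed promoters hold TGATGNAA were set beside the cytosolic genes whose windows do not. With curcumin plus CuCl2 against palmitic acid alone, the 7 carriers had a median log2 fold change of 0.13 and 6 were positive, and the 9 others had a median of -0.0056 and 4 were positive. With curcumin the carriers had a median of 0.096 and 7 were positive, and the others had 0.017 and 5 were positive. All genes tested had medians of -0.027 with curcumin plus CuCl2 and -0.017 with curcumin. None of the 16 was called, beside 1.44% and 1.96% of all genes tested. Carriers were also lower in palmitic acid library 3, at a median of 81.3% of the mean of the other palmitic acid libraries. The median was 88.3% for the others and 84.7% over all genes tested. TARS1, a carrier, was instead the highest of its group in that library. Without that library the carriers had a median of 0.0048 with curcumin plus CuCl2, with 4 positive, and of 0.013 with curcumin, with 5 positive. The others then had medians of -0.075 and -0.053, with 3 positive in each comparison, and all genes tested had -0.098 and -0.088.

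ATF4 itself had 902, 875 and 892 TPM with curcumin plus CuCl2, 910.2, 854 and 893 TPM with curcumin, and 765, 778 and 773 TPM with palmitic acid alone. All 6 curcumin libraries lay above the palmitic acid libraries, but the changes of 0.20 with curcumin plus CuCl2 and 0.20 with curcumin did not pass (limma adjusted p = 0.0803 and 0.0837). ATF3, a stress-induced factor, lay below the palmitic acid libraries without overlap, at changes of -0.55 and -0.58 that did not pass either (limma adjusted p = 0.113 and 0.0897), and so did CEBPB, at -0.38 and -0.42 (limma adjusted p = 0.172 and 0.125). EIF2AK2, a regulator of the integrated stress response, had changes of -0.65 and -0.57 that did not pass (limma adjusted p = 0.173 and 0.221). Only with curcumin plus CuCl2 did it lie below the palmitic acid libraries without overlap. TRIB3, another such regulator, lay above the palmitic acid libraries without overlap in both comparisons. Its changes of 0.16 and 0.16 did not pass (limma adjusted p = 0.18 and 0.16). DDIT3, a target of ATF4 and the gene that overlaps MARS1, had changes of 0.073 and 0.015. Of 11 ATF4 target genes of amino acid synthesis and metabolism above the filter, 3 rose in each comparison and none fell, where 0.543% of all genes tested rose with curcumin plus CuCl2 and 0.759% with curcumin. ASNS, asparagine synthetase, had 195, 189 and 184 TPM with curcumin plus CuCl2, 187, 208 and 178 TPM with curcumin, and 135, 135 and 124 TPM with palmitic acid alone, changes of 0.52 (limma adjusted p = 0.00975) and 0.53 (limma adjusted p = 0.00814). PHGDH, the entry enzyme of serine synthesis, rose by 0.47 and 0.50 (limma adjusted p = 0.00576 and 0.00351), and CHAC1, which degrades glutathione, by 0.51 and 0.49 (limma adjusted p = 0.00705 and 0.00755). In these 3 genes palmitic acid library 3 was again the lowest of its group, yet neither curcumin group overlapped with the palmitic acid group. PYCR1, an enzyme of proline synthesis on the same list, lay below the palmitic acid libraries without overlap, at changes of -0.20 and -0.17 that did not pass (limma adjusted p = 0.128 and 0.187). Among the 35 synthetases the largest positive estimate was 0.24, that of HARS2 with curcumin, and the largest among the TGATGNAA carriers was 0.22, that of NARS1 with curcumin plus CuCl2.

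Of 15 regulators of the integrated stress response 1 fell in each comparison and none rose, where 0.9% of all genes tested fell with curcumin plus CuCl2 and 1.21% with curcumin. It was PPP1R15A, which directs the phosphatase that ends the response, with 295, 291 and 305 TPM with curcumin plus CuCl2, 305, 271 and 280.3 TPM with curcumin, and 401, 369 and 374 TPM with palmitic acid alone (-0.36, limma adjusted p = 0.0286, and -0.42, limma adjusted p = 0.0159). None of the 8 ATF4 target transporters of amino acids was called, beside 1.44% of all genes tested with curcumin plus CuCl2 and 1.96% with curcumin.

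Partners of the synthetases were counted in the same way. None of the 3 scaffold proteins of the multisynthetase complex was called, and the largest change was that of AIMP1 with curcumin (0.21, limma adjusted p = 0.285). None of the 4 genes of mitochondrial glutamine amidation and methionine formylation was called, nor of 3 factors that clear mischarged tRNA, 6 cytosolic elongation factors, 9 mitochondrial translation factors or 14 genes of tRNA maturation and export. Against palmitic acid alone, 1.44% of all genes tested were called with curcumin plus CuCl2 and 1.96% with curcumin. At these shares 0 calls in lists this small is near the background. None of the genes of any of these lists was called between the curcumin groups, where 0 of all genes tested were called.

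Some levels have limits of annotation. MARS1 overlaps DDIT3, a stress-induced gene at 610.2 TPM, on the other strand, and KARS1 overlaps TERF2IP at 47.4 TPM. Also on the other strand, EARS2 (14.0 TPM) overlaps a gene at 20.7 TPM and WARS2 (8.24 TPM) a gene at 13.7 TPM. YARS2 (39.1 TPM) overlaps DNM1L there at 34.4 TPM. Read sharing between such neighbours cannot be told apart from the deposited values. Pseudogenes named after a member were listed for KARS1 (3), CARS1 (2) and, with 1 each, AARS1, FARSB, GARS1, NARS1, RARS1, WARS1, IARS2, TARS2 and WARS2, and their reads could have been divided with those of the gene.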

How the data were processed

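Messenger RNA of 9 libraries was analysed from 1 table of TPM values that the authors deposited, with 2 decimals and 1 column per library. The submitters' processing notes name HISAT2 2.1.0, RSEM 1.3.3 and the build GRCh38.p13 without giving roles, and the annotation release is not given in the sources used here. TPM holds no read counts, so depth is unknown, no counting interval is given and no count model was used. Sample titles gave the groups and replicate numbers. The labels do not say that replicates were separate cultures, so the spread behind the p-values may be technical only.

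Genes averaging 1 TPM or more were fitted with limma 3.58.1 in R 4.3.3 on log2(TPM + 1), with the 3 groups in 1 fit, empirical Bayes with a variance trend, and Benjamini-Hochberg adjustment over 13443 genes. A fold change on this scale understates that of low genes. The script was tested on simulated data. There were 19 alternatives. Gene positions came from GENCODE 29 by Ensembl ID and promoters from RefSeq.

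The members and all gene lists were chosen with earlier results of these data known. Values per library are given for members past the threshold, for the 2 of each set with the largest change in each comparison among those averaging at least 5 TPM, for the highest and lowest of each set, and for GARS1, KARS1, EPRS1, WARS1, HARS1 and HARS2. FARSA, CARS1 and YARS2 were added after their values were seen.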

Additional observations from a re-analysis of the deposited data

How the results depend on the processing

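None of the 35 genes was called under 17 of the 19 alternatives in either comparison with palmitic acid alone, and no called change turned its sign. The exceptions were the covariate fit, with 10 called with curcumin plus CuCl2 and 9 with curcumin, and leaving out palmitic acid library 3, with 1 in each, WARS1. Leaving out 1 library at a time gave between 0 and 1 of the 35 in each comparison with palmitic acid alone. None of the 35 was called between the curcumin groups under any of the 19.

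Counts over all genes moved more. With curcumin plus CuCl2 against palmitic acid alone, 194 genes were called, 114 with no filter on low values, 65 with only the groups compared in the fit, 1436 with the covariate, and between 46 and 527 with 1 library left out. With curcumin against palmitic acid alone, 264 were called, 104 with no filter, 35 with only the groups compared, 130 with no variance trend, 1505 with the covariate, and between 54 and 619 with 1 library left out. Palmitic acid library 3 gave the largest count in each. Between the curcumin groups 0 were called, 1 with log2(TPM + 5), 3 with no filter, 3 with only the groups compared, and between 0 and 4 with 1 library left out. In fits without the low-value filter more genes are tested, and fits of fewer libraries estimate the spread from fewer; the cause of the other shifts was not tested.

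The labels do not say whether the replicate numbers shared between groups pair the samples. Correlations of deviations from the group means ranged from -0.269 to 0.246 for same-numbered libraries of different groups. For differently numbered ones they ranged from -0.382 to 0.262. With 3 libraries a group these values cannot decide whether the samples are paired. With the number as a replicate block, 147, 177 and 0 genes were called in the 3 comparisons, in the order given here, and none of the 35.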
